A study of Homo sapiens with 16 samples.

Results

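Mitochondrial ribosomal protein genes are the nuclear genes for the proteins of the mitochondrial ribosome, taken here as every symbol of MRPL or MRPS followed by digits. All 78 such protein-coding genes of the annotation were listed in both tables of the study, 49 with MRPL symbols for the large subunit and 29 with MRPS symbols for the small subunit. They were 78 of 10799 transcripts in the table of MDA-LM2 against parental cells and 78 of 8980 in the table of sgHNRNPC against sgControl cells. The study compared 4 lines of MDA-MB-231, a human triple-negative breast cancer cell line: the poorly metastatic parental line, its derivative MDA-LM2 that is highly metastatic to the lungs, and MDA-MB-231 cells under CRISPR interference, in which a guide RNA sends a dCas9-KRAB repressor to a gene, labelled sgHNRNPC where the guide targeted HNRNPC and sgControl where it was a control. HNRNPC is a nuclear RNA-binding protein that binds runs of U. Each line had 2 lysates, and each lysate gave an RNA-seq library and a ribosome profiling library, 16 libraries in 8 groups of 2. Ribosome profiling counts ribosome-protected mRNA footprints (RPFs), and the ratio of RPF to RNA is the translation efficiency (TE). The methods call the sequencing experiments biological duplicates, and the labels do not say whether the lysates of a line came from separate cultures. The limma p-values below measure the spread between these samples, and those of logistic regression do not.

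The mitochondrial ribosome makes the few proteins that mitochondrial DNA encodes, all of them subunits of the respiratory chain and ATP synthase. Its proteins are translated in the cytosol by the cytosolic ribosome and imported into the matrix, where they assemble with RNAs transcribed inside the mitochondrion, so their mRNAs and footprints are those of ordinary nuclear genes. Of the 78 genes, 48 encode relatives of bacterial ribosomal proteins and 30 encode proteins found only in mitochondrial ribosomes. Symbol and place do not match throughout: MRPS18A and MRPS30 carry small-subunit symbols, but their proteins sit in the large subunit, and MRPS36 is also known as a part of the oxoglutarate dehydrogenase complex. The members lay on 21 chromosomes, with no more than 8 on one. Their transcripts were short, with a median coding sequence of 594 bases (range 198 to 1452) against 1431 bases over all genes listed, and a median 3′ UTR of 458.5 bases against 1160.5. A C followed by 6 U, letters of the kind HNRNPC binds, stood in the 3′ UTR of 24 of the 78 members (30.8%), against 42.9% of all genes listed. Of the members, 36 had named pseudogenes in the annotation, 79 in all, 15 shared exonic positions with another gene on the same strand and 23 with one on the opposite strand. Whether the counting used strand is not given in the sources used here, so the values of such members may hold reads of the copy or partner.

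The libraries of the MDA-LM2 table held 7517953 to 8193031 RNA reads and those of the sgHNRNPC table had 5141959 to 6164753, taken from the step between values, which gave whole reads to within 0.02 for every RNA value. No such step was found for RPF, whose depth is unknown, and whose normalised counts summed to 650736 to 679726 per library in the first table and 158011 to 167928 in the second. VIM, CD44 and AXL, markers of this mesenchymal line, were listed at high levels, S100A4 was listed too, with a log2 difference of -1.34 in MDA-LM2, and ESR1, PGR, CDH1, PTPRC and PECAM1 were listed in neither table. Of the genes that should be low in this line, EPCAM stood at percentile 10.4 and ERBB2 at percentile 81.1 of parental RNA. HNRNPC RNA was 2162 and 2146 in the sgControl libraries and 1147 and 1183 in the sgHNRNPC libraries (log2 -0.89), which checks the labels of the knockdown.

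In RNA few genes of the mitochondrial ribosome changed between MDA-LM2 and parental cells, and MRPL46 and MRPS11 led the rises. By limma on log2(normalised count + 1), at an adjusted p under 0.05 over all 10772 genes tested, 4 of the 78 members rose and 3 fell, 8.97% against 16.8% of all genes tested. Rises made up 6.73% and falls 10.1% of all genes tested. The balance depended on scaling: with libraries scaled to equal totals 7 members rose and 0 fell, and with a correction for GC content, chosen after seeing the data, 6 rose and 4 fell. The shares of all genes called at these 2 settings are not given here, and equal totals also raised the median change of all genes. The median change of the members was -0.04 on the log2 scale, beside -0.02 over all genes tested, and single members ranged from -0.63 to 1.31. At an unadjusted p under 0.05 there were 18 of the 78 members, against 3500 of the 10772 genes tested. In these bulk lysates a lower level in each cell and fewer cells with the RNA cannot be told apart. The large subunit (median -0.05, 2 higher and 1 lower) and the small subunit (median -0.04, 2 higher and 2 lower) gave nearly the same values. Among relatives of bacterial proteins 1 rose and 2 fell, and among proteins found only in mitochondria 3 rose and 1 fell. The plot of RNA against footprint changes shows this cloud around 0 with MRPL46 and MRPS11 outside it.

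**Figure D1:**
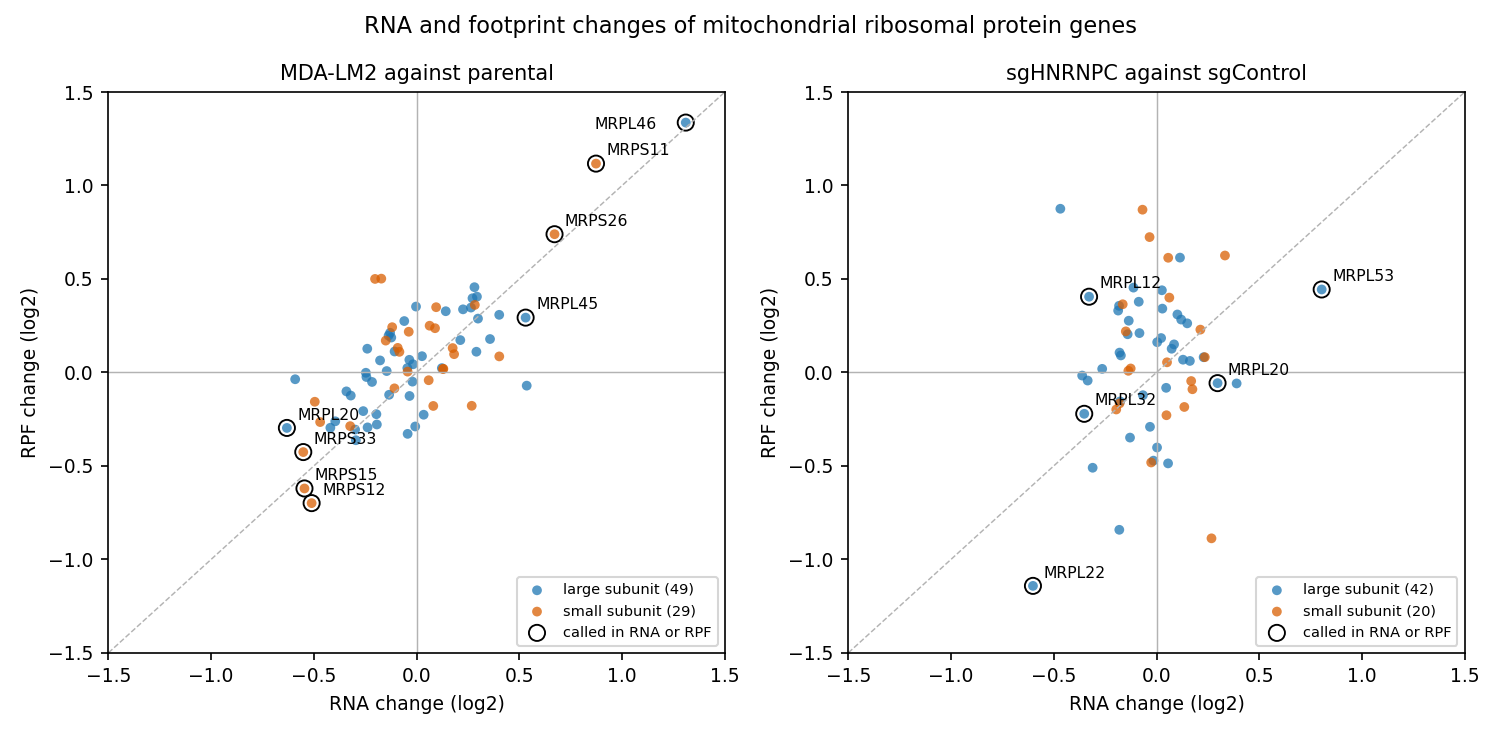
RNA change (x axis, log2) against RPF change (y axis, log2) of each member whose mean normalised count reached 10 in RPF and in RNA, for MDA-LM2 against parental cells (left, 78 members) and sgHNRNPC against sgControl cells (right, 62 members). Blue points are large-subunit and orange points small-subunit members, rings mark members past an adjusted p of 0.05 in RNA or RPF, and the dashed line marks equal change. On the left MRPL46 and MRPS11 lie at the upper right, whereas on the right no ringed member passed the test in RPF.

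The members with the largest rise were MRPL46 and MRPS11. MRPL46 encodes a protein of the large subunit found only in mitochondria, and MRPS11 encodes a small-subunit protein of the uS11 family, which lies on the platform of the subunit. MRPL46 (transcript ENST00000312475, chr15:88459478-88467388 of hg38, minus strand) had RNA values of 97.5 and 104 in the parental libraries and 264 and 239 in the MDA-LM2 libraries. The ranges did not overlap, and the 2.48-fold rise was 1.31 ± 0.14 (SE) on the log2 scale (limma adjusted p = 0.000799). MRPS11 (ENST00000325844, chr15:88467708-88480776, plus strand) had 404 and 381 in the parental libraries and 740.4 and 699 in the MDA-LM2 libraries, again without overlap, a 1.83-fold rise of 0.87 ± 0.12 (SE) in log2 (adjusted p = 0.00219). Footprints moved with the RNA. MRPL46 RPF was 19.6 and 11.5 in the parental libraries and 38.2 and 40.9 in the MDA-LM2 libraries, a rise of 1.34 ± 0.29 (SE) (adjusted p = 0.00136). MRPS11 RPF was 42.0 and 26.9 in the parental libraries and 72.3 and 76.0 in the MDA-LM2 libraries, a rise of 1.12 ± 0.21 (SE) (adjusted p = 0.000226). All 4 calls held in every alternative that gave a value, with adjusted p up to 0.00139 for MRPL46 RNA, 0.0178 for MRPS11 RNA, 0.0182 for MRPL46 RPF and 0.00564 for MRPS11 RPF. Their change in TE was 0.03 ± 0.34 (SE) and 0.24 ± 0.26 (SE) in log2, neither past the test.

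These 2 genes lie head to head. Their annotated starts are 320 bases apart on opposite strands, and their promoter windows of 250 bases before to 50 after the start share 181 bases. The windows are printed here, 5′ to 3′ on each gene's own strand, from RefSeq on GRCh38.p14, because they are the sequence the pair has in common. The windows of MRPS26 and MRPS12, the other members past the test in RPF, follow for comparison, the former at chr20:3045802-3046101 (plus strand) and the latter, the first of its 2 windows, at chr19:38930694-38930993 (plus strand). MRPL46 is at chr15:88467339-88467638 (minus strand) and MRPS11 at chr15:88467458-88467757 (plus strand). Capitals mark matches, on either strand, to the motifs counted next.
MRPL46: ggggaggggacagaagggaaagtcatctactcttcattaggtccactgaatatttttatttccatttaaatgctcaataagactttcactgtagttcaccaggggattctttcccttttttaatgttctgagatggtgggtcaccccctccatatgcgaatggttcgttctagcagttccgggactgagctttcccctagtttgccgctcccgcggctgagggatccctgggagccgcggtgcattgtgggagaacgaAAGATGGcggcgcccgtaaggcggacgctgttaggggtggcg
MRPS11: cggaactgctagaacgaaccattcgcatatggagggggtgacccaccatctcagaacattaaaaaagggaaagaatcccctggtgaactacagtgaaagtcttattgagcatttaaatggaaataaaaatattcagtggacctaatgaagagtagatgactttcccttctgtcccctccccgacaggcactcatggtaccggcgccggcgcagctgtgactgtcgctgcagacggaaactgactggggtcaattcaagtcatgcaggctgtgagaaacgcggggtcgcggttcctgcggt
MRPS26: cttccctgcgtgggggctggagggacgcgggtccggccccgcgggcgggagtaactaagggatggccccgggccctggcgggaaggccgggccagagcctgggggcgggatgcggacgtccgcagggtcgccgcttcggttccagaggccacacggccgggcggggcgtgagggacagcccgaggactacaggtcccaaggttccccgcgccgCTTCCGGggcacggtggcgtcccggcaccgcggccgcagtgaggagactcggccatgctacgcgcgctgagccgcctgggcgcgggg
MRPS12: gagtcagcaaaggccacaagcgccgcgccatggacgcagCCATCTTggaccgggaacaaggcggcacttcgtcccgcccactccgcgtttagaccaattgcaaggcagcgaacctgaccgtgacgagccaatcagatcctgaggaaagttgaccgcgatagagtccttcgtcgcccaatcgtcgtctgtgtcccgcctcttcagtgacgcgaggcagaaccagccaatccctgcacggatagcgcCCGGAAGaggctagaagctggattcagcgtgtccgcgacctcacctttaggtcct

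Each window was searched on both strands for 4 short letter patterns: CCGGAAG, a form of the site of ETS family factors such as GABPA (also called NRF2), AAGATGG, a core of the YY1 site, CATGCGC, a part of the site of NRF1, and CACGTG, the E-box of MYC and related factors. These factors are known for many nuclear genes of mitochondrial proteins. RefSeq windows matched 69 of the 78 members, in 85 windows, and a gene was counted if any of its windows held the pattern. The ETS letters stood in 30 members (43.5%), against 24.3% of the 8733 genes of the MDA-LM2 table with a window and 12.2% of all 27305 genes with one. The YY1 letters stood in 24 members (34.8%), against 10% and 7.11%. The NRF1 letters stood in 7 members (10.1%), against 9.2% and 5.3%, and the E-box in 9 (13%), against 13% and 8.77%. Large and small subunit were close, at 42.9% and 44.4% for ETS and 35.7% and 33.3% for YY1. MRPL46 held a YY1 match just past its start, MRPS11 none of the 4 patterns, MRPS26 an ETS match and MRPS12 an ETS and a YY1 match. A match of letters is a description and not a site.

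Many genes beside MRPL46 and MRPS11 were also higher in MDA-LM2. Of 9 other genes tested whose bodies lay within 1 Mb of each, all 9 had RNA changes above 0 and 5 rose, with a median of 0.87 around MRPL46 and 0.88 around MRPS11. Each of the pair counts among the neighbours of the other. The same region holds POLG, the catalytic subunit of the mitochondrial DNA polymerase (log2 1.10), FANCI (1.02), AEN (1.35) and ABHD2 (0.88). Over 9224 genes with at least 5 such neighbours the median of the neighbours' changes was -0.04, with the percentiles 1 and 99 at -0.58 and 0.63. A like picture held for MRPS26 and MRPL20, though the medians of their neighbours lay inside these percentiles and those of MRPL46 and MRPS11 above them. Around MRPS26, a small-subunit gene on chromosome 20, 19 of 21 neighbours were above 0 and 9 rose (median 0.46), and around MRPL20, on chromosome 1, 33 of 34 were below 0 and 21 fell (median -0.56). It did not hold for MRPL45, whose 18 neighbours had a median of -0.20 with none risen and 3 fallen while MRPL45 itself rose. The neighbours of MRPS33 (9 genes, median -0.13) and MRPS15 (14 genes, median -0.31, 4 fallen) lay nearer to the genome-wide median. Neighbours share libraries with the members, and the part of chromosome position in these changes was not tested.

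**Figure D2:**
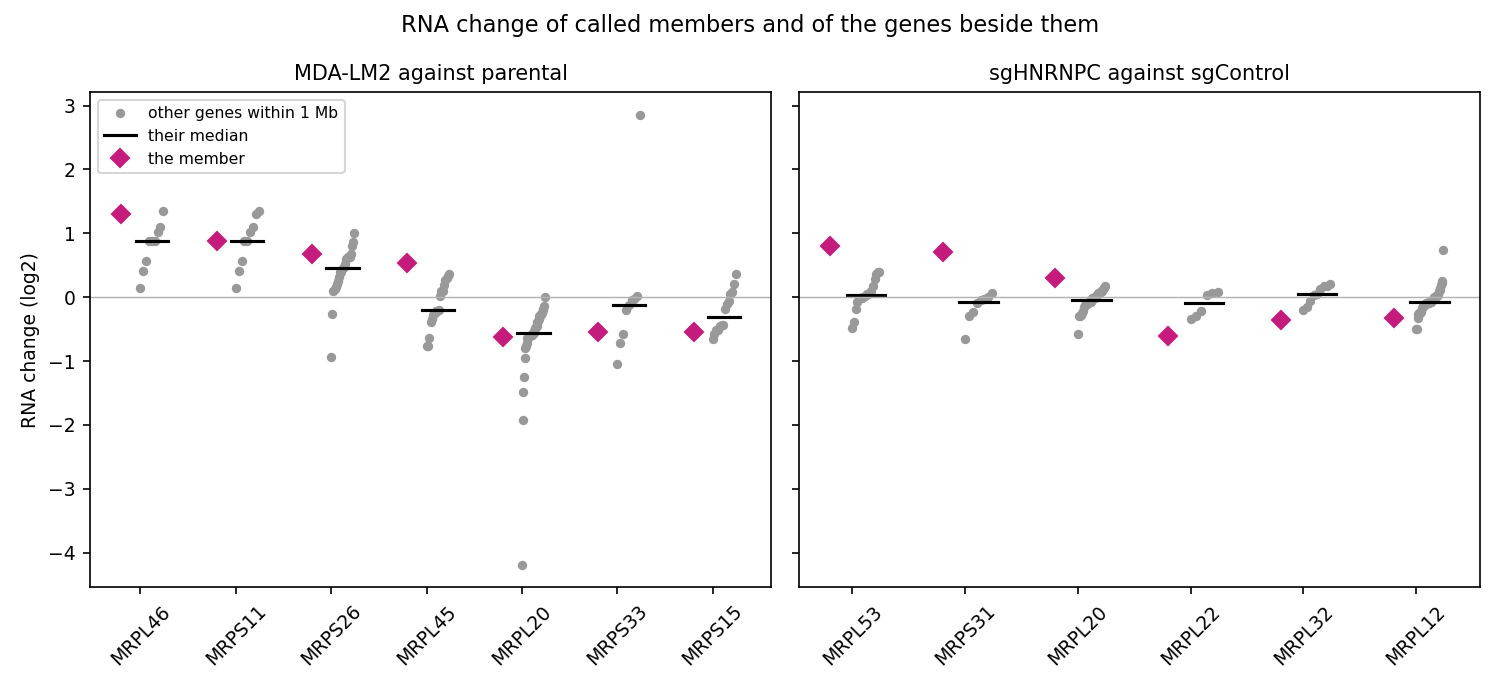
RNA change (y axis, log2) of each member that passed the test in RNA (pink diamonds) and of the other genes tested within 1 Mb (grey points, black bar at their median), for MDA-LM2 against parental cells (left) and sgHNRNPC against sgControl cells (right). On the left the neighbours of MRPL46, MRPS11 and MRPS26 lie mostly above 0 and those of MRPL20 below, whereas on the right every median lies between -0.09 and 0.04.

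The other members that passed the RNA test in MDA-LM2 moved less. MRPS26, whose protein is found only in mitochondrial small subunits, had 564 and 457 in the parental libraries and 878 and 745 in the MDA-LM2 libraries (log2 0.67 ± 0.15 (SE), adjusted p = 0.0179), with no overlap. MRPL45, whose protein lies at the exit tunnel and ties the ribosome to the inner membrane, had 177 and 211 in the parental libraries and 264 and 296 in the MDA-LM2 libraries (log2 0.53 ± 0.15 (SE), adjusted p = 0.0417). All MDA-LM2 libraries were thus above all parental ones for both genes. Among those that fell, MRPL20, of the bL20 family, had 425 and 384 in the parental libraries and 303 and 223 in the MDA-LM2 libraries (log2 -0.63 ± 0.17 (SE), adjusted p = 0.0347). MRPS33, a small-subunit protein found only in mitochondria, had 175 and 157 in the parental libraries and 117 and 108 in the MDA-LM2 libraries (log2 -0.55 ± 0.15 (SE), adjusted p = 0.0399). MRPS15, of the uS15 family that binds the small-subunit rRNA, had 664 and 633 in the parental libraries and 441 and 447 in the MDA-LM2 libraries (log2 -0.55 ± 0.11 (SE), adjusted p = 0.0153). For each of the 3 both MDA-LM2 libraries lay below both parental ones. MRPS33 has 3 named pseudogenes, and MRPL20 shares exonic positions with its antisense gene MRPL20-AS1. These 5 calls depended on single libraries or on scaling: MRPS26 was not past the test without parental replicate 2 (adjusted p = 0.206), MRPL45 not without parental replicate 1 (0.418) or 2 (0.0914), and MRPL20, MRPS33 and MRPS15 not without either parental replicate nor with libraries scaled to equal totals.

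The count of members past the RNA test also moved widely when single libraries were left out, which leaves a lone library in a group. The shares of all genes past the test in those fits are not given here, so such counts are no result about the members. The 2 MDA-LM2 RNA libraries differed along GC content: over the members the difference of replicate 1 minus replicate 2 correlated with transcript GC at r = 0.46 (n = 78), and over all genes at 0.38, a description over genes of the same libraries.

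At the level of footprints 3 of the 78 members rose and 1 fell, 5.13% against 12% of the 8393 genes tested (5% higher and 7.03% lower). The median RPF change of the members was 0.05 in log2, beside -0.01 over all genes tested, with 0.02 in the large and 0.10 in the small subunit. At an unadjusted p under 0.05 there were 8 of the 78 members, against 2065 of the 8393 genes tested. Beside MRPL46 and MRPS11, MRPS26 rose in RPF, with 28.1 and 24.7 in the parental libraries and 55.7 and 35.8 in the MDA-LM2 libraries (log2 0.74 ± 0.24 (SE), adjusted p = 0.0411). The fall was in MRPS12, of the uS12 family at the decoding site, with 57.5 and 60.5 in the parental libraries and 37.7 and 34.3 in the MDA-LM2 libraries (log2 -0.70 ± 0.20 (SE), adjusted p = 0.0176). Its RNA was 838 and 773 in the parental libraries and 649 and 491 in the MDA-LM2 libraries, a log2 change of -0.51 ± 0.15 (SE) that just missed the threshold (adjusted p = 0.0521). MRPS26 RPF was not past the test without a filter on low values (adjusted p = 0.0557), without parental replicate 2 (0.102) or without MDA-LM2 replicate 1 (0.478), and MRPS12 RPF not without parental replicate 2 (0.0777) or MDA-LM2 replicate 2 (0.0969). Footprints of the remaining members named above went the way of the RNA without passing the test: the log2 change of RPF was 0.29 ± 0.18 (SE) in MRPL45, -0.30 ± 0.19 (SE) in MRPL20, -0.43 ± 0.28 (SE) in MRPS33 and -0.62 ± 0.21 (SE) in MRPS15 (adjusted p = 0.0518 in the last). Over the members the changes in RPF and RNA correlated at r = 0.76 (n = 78), beside 0.77 over all genes tested.

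**Figure D3:**
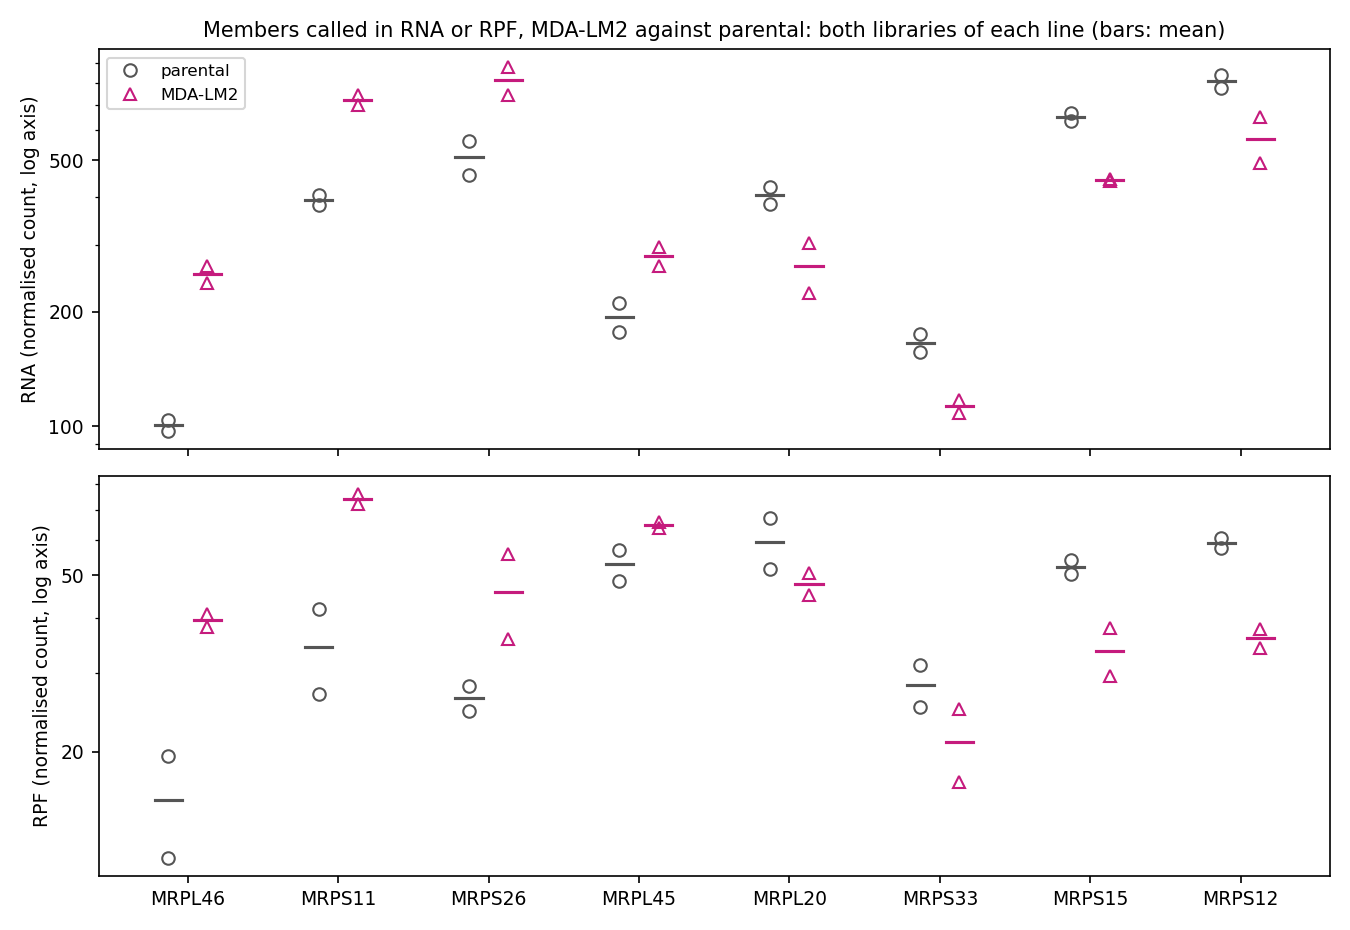
RNA (top) and RPF (bottom) normalised counts on log axes for the 8 members past the test in RNA or RPF in MDA-LM2 against parental cells, both libraries of each line, with bars at the mean. MRPL46 and MRPS11 are higher in both MDA-LM2 libraries in RNA and RPF, and MRPS12 and MRPS15 are lower in both.

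No member passed the test of a TE change between MDA-LM2 and parental cells. The limma interaction test called 0 of 78 members (smallest adjusted p = 0.890) and 3 of 8393 genes in all, 0.0357% (0.0238% higher, 0.0119% lower). An unadjusted p under 0.05 in this test was found in 2 of the 78 members and 455 of the 8393 genes. Logistic regression of RPF against RNA, the kind of test the study's methods use, likewise called 0 members, against 2.16% of all genes. It summed both lysates of a line and took normalised values as reads, so its p-values do not hold the spread between lysates. The median TE change of the members was 0.08 in log2, beside 0.03 over all genes, the range was -0.61 to 0.70, and the median SE of a member was 0.24. The smallest p-values were those of MRPS18C, MRPS18A and MRPL39. The first pair are among the 3 human versions of the bacterial protein bS18. MRPS18C had RPF of 39.0 and 40.7 in the parental libraries and 66.4 and 48.6 in the MDA-LM2 libraries with RNA of 135 and 125 in the parental libraries and 111 and 119.7 in the MDA-LM2 libraries, a TE change of 0.67 ± 0.28 (SE) in log2. RPF was up in both MDA-LM2 libraries and RNA was lower in both. MRPS18A had a TE change of 0.70 ± 0.32 (SE), with MDA-LM2 RNA of 326 and 195 on either side of the parental values of 288 and 293. MRPL39 had a TE change of -0.61 ± 0.32 (SE). Members chosen for their place in the ribosome also missed the test in RNA and RPF: in MRPL12, the stalk protein that meets translation factors, the log2 change was -0.15 ± 0.13 (SE) in RNA and 0.01 ± 0.16 (SE) in RPF. MRPL58, a peptidyl-tRNA hydrolase that frees stalled chains, had -0.20 ± 0.12 (SE) and -0.22 ± 0.21 (SE). MRPS30 had 0.09 ± 0.17 (SE) and 0.24 ± 0.15 (SE). MRPL44, a relative of RNase III in the large subunit, had 0.29 ± 0.15 (SE) and 0.11 ± 0.21 (SE).

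In HNRNPC knockdown cells a few members changed in RNA, MRPL53 and MRPS31 with the largest rises and MRPL22 with the largest fall. In sgHNRNPC against sgControl cells 3 of the 78 members rose and 3 fell in RNA, 7.69% against 9.97% of the 8961 genes tested (3.37% higher, 6.6% lower). An unadjusted p under 0.05 was found in 19 of the 78 members and 2016 of the 8961 genes. With equal totals 2 rose and 5 fell, and with quantile normalisation or the GC correction 3 rose and 1 fell, settings whose shares of all genes are not given here. The median change was 0.03 in log2, beside -0.02 over all genes. The large subunit had a median of -0.02 (2 higher, 3 lower) and the small subunit 0.13 (1 higher, none lower), a difference of -0.14 that lay between -0.19 and -0.09 when single lysates were left out. All calls were lost without sgHNRNPC replicate 2. MRPL20 alone passed the RNA test in both comparisons, with opposite signs.

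The rises were led by MRPL53 and MRPS31, both of proteins found only in mitochondrial ribosomes. MRPL53 had RNA of 53.0 and 64.2 in the sgControl libraries and 96.3 and 109 in the sgHNRNPC libraries (log2 0.80 ± 0.18 (SE), adjusted p = 0.000924). MRPS31 had 75.2 and 72.4 in the sgControl libraries and 115 and 128 in the sgHNRNPC libraries (log2 0.71 ± 0.17 (SE), adjusted p = 0.00133). Both genes were higher in both knockdown libraries, and without sgHNRNPC replicate 2 their adjusted p rose to 0.0672 and 0.0741. MRPS31 has 4 named pseudogenes, and MRPL53 shares exonic positions on its strand with CCDC142. MRPL20 had 250.1 and 225 in the sgControl libraries and 293 and 289.5 in the sgHNRNPC libraries (log2 0.30 ± 0.10 (SE), adjusted p = 0.0421), a difference that missed the test with equal totals (adjusted p = 0.0687) and without sgControl replicate 2 (0.274) or either sgHNRNPC replicate (0.193 and 0.181). Among the falls, MRPL22, of the uL22 family that lines the exit tunnel, had 126 and 166 in the sgControl libraries and 111 and 80.9 in the sgHNRNPC libraries (log2 -0.60 ± 0.15 (SE), adjusted p = 0.00364). The knockdown libraries were below both controls, though its call was lost without sgControl replicate 2 (adjusted p = 0.200). MRPL32, of the bL32 family and known as a substrate of the m-AAA protease, had 195 and 208 in the sgControl libraries and 169 and 147 in the sgHNRNPC libraries (log2 -0.35 ± 0.12 (SE), adjusted p = 0.0489). MRPL12 had 324 and 292 in the sgControl libraries and 265 and 226 in the sgHNRNPC libraries (log2 -0.33 ± 0.10 (SE), adjusted p = 0.0182). Both had lower values in both knockdown libraries. Under quantile normalisation they missed the threshold (adjusted p = 0.0720 for MRPL32 and 0.0651 for MRPL12), as they did with the GC correction (0.0647 and 0.0750) and without sgControl replicate 1 (0.0900 and 0.228), and MRPL32 also without sgControl replicate 2 (0.222). The neighbours of these 6 genes within 1 Mb had medians between -0.09 and 0.04. MRPL46 and MRPS11, which rose in MDA-LM2, had log2 changes of 0.01 ± 0.22 (SE) and 0.04 ± 0.17 (SE). Of the members chosen for their place in the ribosome, MRPL58 had 0.02 ± 0.13 (SE), MRPS30 -0.20 ± 0.13 (SE), MRPL44 0.03 ± 0.15 (SE), MRPL45 -0.09 ± 0.10 (SE) and MRPS12 0.17 ± 0.21 (SE), none past the test. Members with a C and 6 U in the 3′ UTR had a median RNA change of 0.05 (1 of 24 past the test), and those without it 0.02 (5 of 54). In MDA-LM2 the medians were 0.11 (2 of 24) and -0.09 (5 of 54). The same split over all genes is not given here, and the part of base composition in it was not tested.

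Footprints in the sgHNRNPC table were sparse, and 62 of the 78 members (42 large, 20 small) had a mean of at least 10 in RPF and RNA. None of the 62 passed the limma test in RPF (4 at an unadjusted p under 0.05, smallest adjusted p = 0.540), and of all 4283 genes tested 1 passed, 0.0233% (329 at an unadjusted p under 0.05). The median change was 0.08 in log2, beside 0.02 over all genes, with 0.10 in the large and 0.04 in the small subunit, and the median SE of a member was 0.35. The lowest p-value was that of MRPL22, with RPF of 19.4 and 14.4 in the sgControl libraries and 10.98 and 4.39 in the sgHNRNPC libraries (log2 -1.14 ± 0.44 (SE), adjusted p = 0.540). Both knockdown values lay below both controls, the direction of its RNA. Next came MRPL15, of the uL15 family, with 16.2 and 18.4 in the sgControl libraries and 9.25 and 9.14 in the sgHNRNPC libraries (log2 -0.84 ± 0.38 (SE), adjusted p = 0.568). MRPL23, of the uL23 family at the tunnel exit, had 8.21 and 6.84 in the sgControl libraries and 14.8 and 14.3 in the sgHNRNPC libraries (log2 0.88 ± 0.42 (SE), adjusted p = 0.636). The minimum of 10 was a mean over both lines. MRPL23 thus passed it only through its sgHNRNPC libraries, and MRPL22 and MRPL15 only through their sgControl libraries. The filter itself favours such members, so their RPF and TE estimates give no support for a change. MRPL12 and MRPL53, which passed in RNA, had RPF changes of 0.40 ± 0.32 (SE) and 0.44 ± 0.46 (SE). In TE the limma test called 0 of 62 members (6 at an unadjusted p under 0.05, smallest adjusted p = 0.570) and 0% of all 4283 genes (332 at an unadjusted p under 0.05). Logistic regression, whose p-values do not hold the spread between lysates, called 0 members and 0.257% of all genes. The median TE change was 0.12 in log2, beside 0.06 over all genes, with 0.14 in the large and 0.01 in the small subunit. The smallest p-values in TE were those of MRPL23, MRPS18A and MRPS17. In MRPL23 RPF was higher and RNA lower in both knockdown libraries (117 and 114 in the sgControl libraries and 88.3 and 77.99 in the sgHNRNPC libraries for RNA), a TE change of 1.34 ± 0.30 (SE) in log2. MRPS18A had -1.16 ± 0.37 (SE) and MRPS17 0.94 ± 0.35 (SE). These SEs rest on 1 spread per gene, fitted over RNA and RPF libraries together. The median TE SE of a member was 0.31, below that of RPF alone, so it may be too small where RPF is noisier. The filter on a mean over both lines can favour members high in 1 line here too, so these TE estimates give no support for a change. The changes in RPF and RNA correlated at r = 0.16 over the members (n = 62), beside 0.25 over all genes.

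Levels between genes are given per kb, RNA per kb of transcript and RPF per kb of coding sequence. In parental cells the RNA of the members had a median of 270 normalised counts per kb, above 79.5% of all genes listed, and ranged from 25.6 in MRPL50 to 1951 in MRPL41. MRPL12 (1620) and MRPS34 (1580) followed at the top, and MRPL19 (27.6) and MRPS33 (39.7) at the bottom. Footprints were far more even. RPF had a median of 81.8 per kb, above 84.4% of genes, and ranged from 19.7 in MRPL46 to 296 in MRPL51, with MRPL52 (244) and MRPL17 (195) next at the top and MRPS9 (29.2) and MRPS5 (37.6) next at the bottom. The large subunit had the higher median RNA (381 per kb against 162 in the small subunit, or 697 against 550 per kb of coding sequence), whereas the medians of RPF were close (81.5 and 86.2). The SD of log2 levels over the 78 members was 1.56 in RNA and 0.66 in RPF in parental cells, and 1.45 and 0.58 in MDA-LM2. With RNA per kb of coding sequence, the length used for RPF, the SD in RNA was 1.35 in parental cells and 1.23 in MDA-LM2. In parental cells cytosolic ribosomal proteins (73 genes) had 1.55 in RNA and 0.42 in RPF, genes of the respiratory chain and ATP synthase (88) 1.86 and 1.29, and all genes 2.17 and 2.02. Per kb of coding sequence these RNA values were 1.12, 1.71 and 2.20. In the other table the members' SD was 1.02 in RNA and 0.74 in RPF in sgControl cells and 1.00 and 0.81 in sgHNRNPC cells. In each of the 8 lysates the SD of the members was lower in RPF (0.58 to 0.94) than in RNA (0.99 to 1.60). These are levels after the authors' normalisation, and members of 1 library share its depth and base composition.

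**Figure D4:**
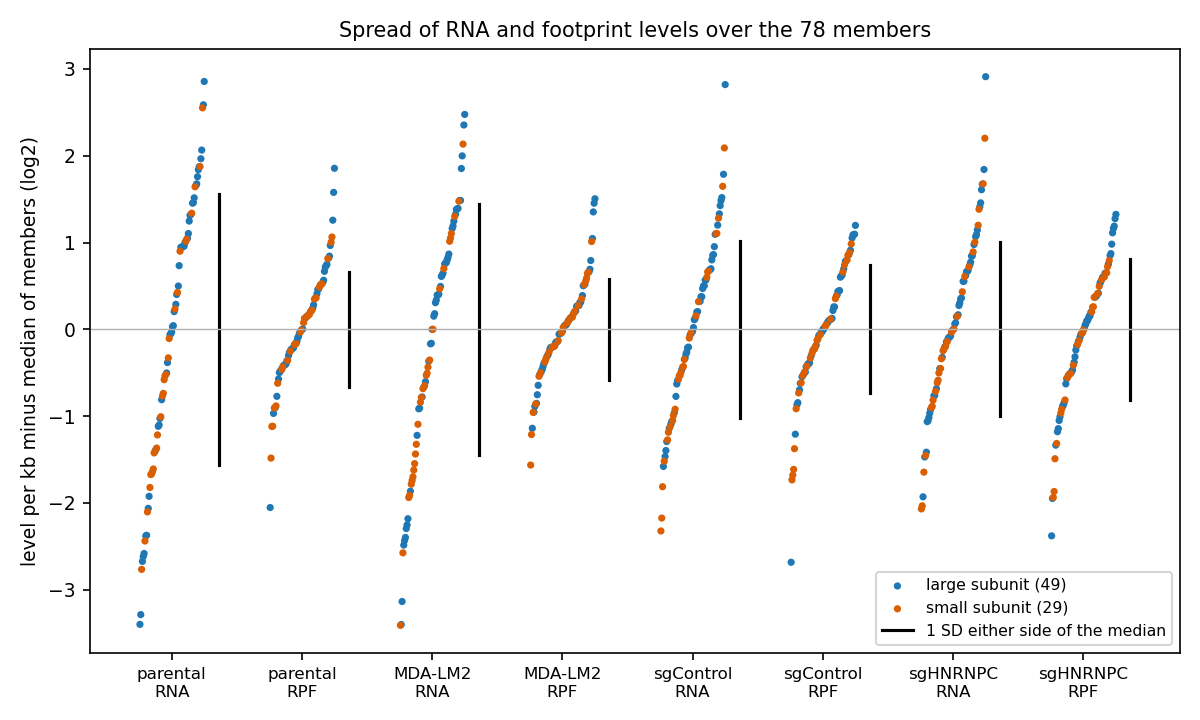
Level per kb of each of the 78 members minus the median of the members (y axis, log2), by line and kind of library (mean of both lysates), with black bars 1 SD either side of the median. Blue points are large-subunit and orange points small-subunit members. RPF levels (per kb of coding sequence) lie closer together than RNA levels (per kb of transcript) in every line, with SDs of 0.66 and 1.56 in parental cells.

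Baseline TE was taken as log2 of RPF per kb of coding sequence over RNA per kb of transcript, minus its median over all genes tested. In parental cells the members had a median of 0.17 (0.11 and 0.13 with either lysate left out), and 42 of 78 were above 0, with -0.19 in the large and 0.85 in the small subunit. MDA-LM2 gave 0.23, with -0.12 and 0.95. In sgControl cells the median was 0.77 (42 of 62 above 0), with 0.73 in the large and 0.89 in the small subunit, and in sgHNRNPC cells 0.79, with 0.89 and 0.63. The gap between subunits (large minus small) was -1.04 in parental cells and -0.16 in sgControl cells, and that of parental cells shrank to -0.50 when no lengths were used. Cytosolic ribosomal proteins lay at -1.44 in parental and -1.03 in sgControl cells, and the respiratory chain at 0.47 and 0.53. The lowest members in parental cells were MRPL41 (-2.09), MRPS34 (-1.82), MRPL43 (-1.70), MRPS24 (-1.68) and MRPL12 (-1.63). The highest were MRPL50 (3.36), MRPS33 (3.12), MRPL19 (2.99), MRPL42 (2.94) and MRPL35 (2.62). In sgControl cells MRPL41 was at 2.15, MRPS34 at -0.07, MRPL12 at -0.14, MRPL50 at 2.26, MRPL19 at 1.19, MRPL42 at 2.82 and MRPL35 at 1.08. MRPS12 went from -0.62 to 2.65. The order of the members therefore differed between the tables, with r = 0.37 between parental and sgControl baseline TE (n = 62) beside 0.36 over all genes tested in both. By the plain ratio, without lengths, r was -0.08 over the members and 0.25 over all genes.

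Base composition moved with these values. Over the members, baseline TE in parental cells correlated with transcript GC at r = -0.87 (n = 78, all genes -0.66), and in sgControl cells at -0.08 (n = 62, all genes 0.17). By the plain ratio r was -0.73 (all genes -0.48) in parental and 0.46 (all genes 0.45) in sgControl cells, so its sign differed between the tables. The difference in RNA level between sgControl and parental cells, 2 tables that were normalised separately, correlated with GC at -0.86 over the members and -0.83 over all genes, whereas that in RPF gave 0.03 and -0.06. RNA of MRPL41 differed by -3.75 and that of MRPS12 by -3.38 in log2, and that of MRPL50 by 1.42. The median GC was 50.78% in the large and 46.61% in the small subunit, against 48.06% over all genes listed, and the median difference in RNA level was -0.87 and -0.27. Within a table the RNA change correlated with GC at -0.25 over the members in MDA-LM2 (Spearman -0.36, all genes -0.26 and -0.33) and at -0.02 in sgHNRNPC (all genes -0.05). These are descriptions across genes that share libraries, and the part of base composition in the gap between subunits was not tested.

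**Figure D5:**
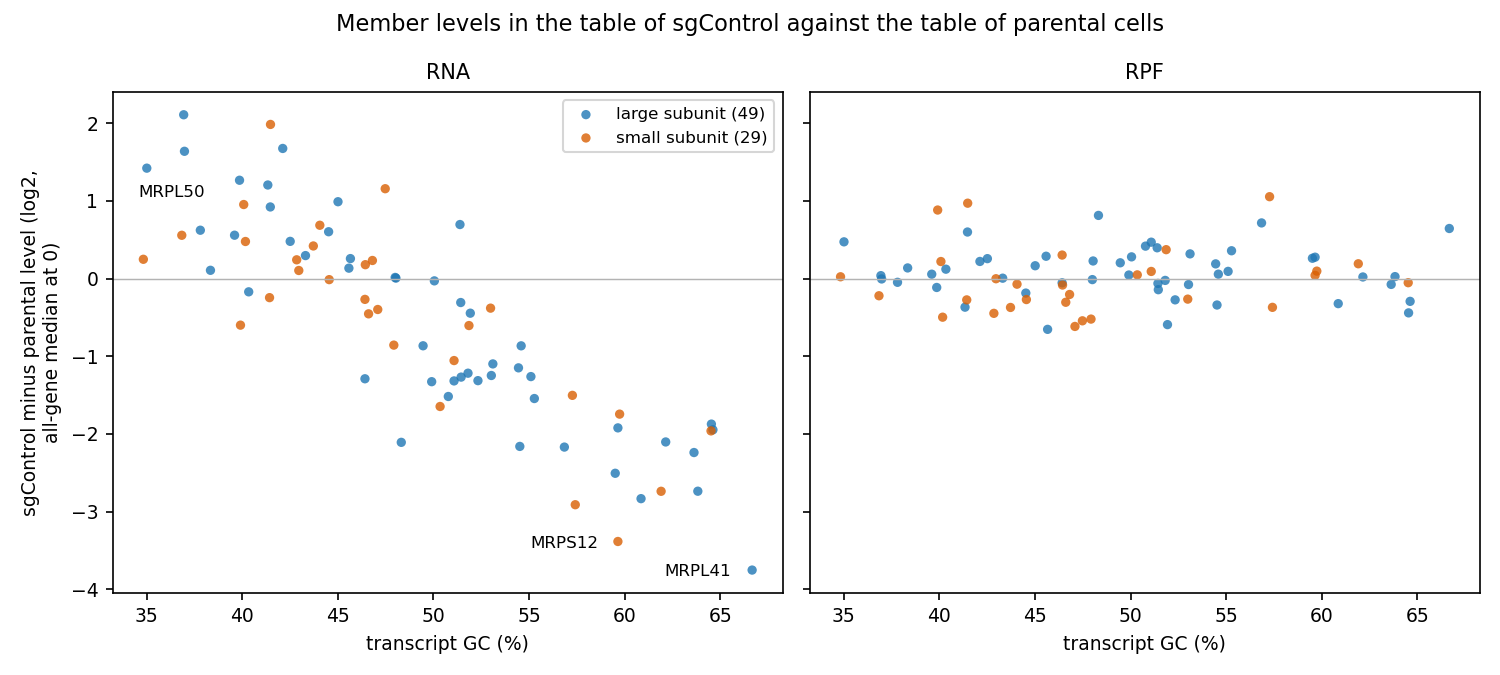
Difference in log2 level between sgControl and parental cells, with the median of all genes at 0 (y axis), against transcript GC in percent (x axis), for RNA (left) and RPF (right) of the 78 members. RNA differences fall with GC (r = -0.86) from MRPL50 down to MRPL41 and MRPS12, whereas RPF differences do not follow GC (r = 0.03).

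Other genes of mitochondrial gene expression were read in the same fits, where 6.73% of all genes rose and 10.1% fell in MDA-LM2 RNA. Of 26 factors that assemble the mitochondrial ribosome, 2 rose in RNA in MDA-LM2 and 1 fell, with a median of 0.01: NGRN (0.95 in log2), also on chromosome 15, and FASTKD2 (0.82) rose, and RCC1L (-0.55) fell. Of the mitochondrial ribosomal proteins under other symbols, 4 of the small and 1 of the large subunit, 1 fell, the small-subunit AURKAIP1 (-0.47, adjusted p = 0.0317), which is also a neighbour of MRPL20, with 2217 and 1922 in the parental and 1522 and 1449 in the MDA-LM2 libraries. None of 16 mitochondrial translation factors passed the test in RNA (median -0.03). At an unadjusted p under 0.05 there were 0 of the 16, against 3500 of all 10772 genes tested. Of 18 genes of mitochondrial aminoacyl-tRNA synthesis, not all of them synthetases, 2 rose, VARS2 (0.51) and YARS2 (0.50). The machinery that copies and transcribes mitochondrial DNA held 3 rises in 10 genes, in POLG (1.10), TFAM (0.68), which packs mitochondrial DNA, and POLRMT (0.45), its RNA polymerase. Their footprints rose too, by 1.35, 0.88 and 0.67 in log2, against 5% of all genes with a rise in RPF. Cytosolic ribosomal proteins had a median of -0.25 (0 of 73 higher, 5 lower) and the respiratory chain -0.18 (0 of 88 higher, 10 lower). The respiratory chain list went by symbol and also takes in ATP synthase subunits and NDUFAF assembly factors. Its 10 falls count ATP5MF and the joined gene ATP5MF-PTCD1 separately. In sgHNRNPC cells 3.37% of all genes rose and 6.6% fell in RNA. None of the 24 assembly factors, 14 translation factors or 10 genes of mitochondrial transcription passed the test in RNA there. Of 17 genes of mitochondrial aminoacyl-tRNA synthesis 1 fell, IARS2 (-0.34). Cytosolic ribosomal proteins had 20 rises and no fall (median 0.07), and 2 of 87 respiratory chain genes rose and 5 fell. The genes encoded by mitochondrial DNA were listed in neither table.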

How the data were processed

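RNA-seq and ribosome profiling libraries of 16 samples (8 groups of 2) were analysed from 2 deposited tables, 1 for MDA-LM2 and parental cells and 1 for sgHNRNPC and sgControl cells. Per the methods and the submitters' processing notes, the authors trimmed reads with cutadapt 2.3 and aligned them with Bowtie2 2.3.5 to 1 mRNA per gene (hg38). They then counted reads per transcript. For footprint reads the methods give a collapse to unique reads and a removal of rRNA and tRNA reads before this alignment. Deduplication with UMI-tools came after it. The deposited values are normalised signal, counts divided by median-of-ratios size factors within each table and kind of library, with no log taken. The RNA libraries were made with a kit for low inputs that keeps strand. The methods describe a correction of footprint counts for stalling, and whether it was applied to these values is not given in the sources used here.

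Transcripts were matched to GENCODE 44 symbols (97.9% in each table). Values were tested as log2(value + 1) with limma 3.58.1 (eBayes with trend, R 4.3.3), with Benjamini-Hochberg adjustment over all genes tested and a threshold of 0.05. RNA was tested where its mean over both lines was at least 10, and RPF and TE where both means were. A fold change on this scale understates the change of low genes. TE changes are the interaction of line and kind of library, with 1 estimate of the spread per gene for both kinds. Logistic regression was an alternative, on normalised values summed over the lysates of a line and taken as reads. Named members were those past the test with non-overlapping replicates (up to 8 per direction in RNA and 5 in RPF and TE), otherwise the 3 with the smallest p, the 5 highest and lowest in baseline TE, the extremes of level, and 7 chosen by role. Members and lists were chosen with earlier results of these data known. The scripts were tested on simulated data. Python 3.11.15, numpy 2.4.6, pandas 2.3.3 and matplotlib 3.10.9 were used for summaries and figures.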

Additional observations from a re-analysis of the deposited data

How the results depend on the processing

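Values were recomputed under pseudocounts of 0.5 and 5, with the minimum mean dropped or raised to 50, after quantile normalisation or scaling to equal totals, with a replicate block, without each lysate in turn and, chosen after seeing the data, with a correction for GC content. Of the recomputed counts and medians 205 stayed close to those reported and 39 moved, and of those of single genes 277 kept their side of the threshold, 34 lost it and 1 gained it. Where a lysate was left out, the lone library was taken to vary like the other group. No direction of a called gene reversed. The gain was MRPL22 RPF in sgHNRNPC cells without sgHNRNPC replicate 1 (log2 -1.72, adjusted p = 0.0484).

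With the GC correction 10 members were called in MDA-LM2 RNA and 4 in sgHNRNPC RNA. The same-numbered samples share only a number: their deviations correlated at 0.23 (RNA) and 0.04 (RPF) in the MDA-LM2 table and at -0.00377 and 0.03 in the other. With the replicate block 12 members were called in MDA-LM2 RNA instead of 7, 5 instead of 4 in MDA-LM2 RPF and 7 instead of 6 in sgHNRNPC RNA, the TE and sgHNRNPC RPF counts stayed at 0, and the medians were those reported. Leaving out single lysates gave 2 to 38 members called in MDA-LM2 RNA, 0 to 5 in sgHNRNPC RNA (6 reported), and 0 to 1 in sgHNRNPC RPF (0 reported). A minimum mean of 50 left 1 member called in MDA-LM2 RPF instead of 4, over 37 members, and left no member in RPF or TE of sgHNRNPC cells. The shares of all genes called with the GC correction, the replicate block, left-out lysates or this minimum are not given here. These counts are therefore no result about the members.

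The median RNA change of the members in MDA-LM2 (-0.04) was 0.13 with equal totals, where that of all genes moved from -0.02 to 0.15, 0.00894 with the GC correction and -0.0942 to 0.0339 over left-out lysates. The median RPF change (0.05) was 0.0857 with a minimum mean of 50, 0.11 with equal totals and 0.0241 to 0.0977 over left-out lysates. In sgHNRNPC cells, over left-out lysates, the median was -0.00557 to 0.0205 in RNA, 0.0650 to 0.159 in RPF and 0.0915 to 0.211 in TE, and large minus small subunit was -0.190 to -0.0863 in RNA and -0.13 to 0.15 in TE. Without a filter the TE median was 0.0189 (0.12 reported).

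Baseline TE of the members in parental cells (0.17) was 0.0876 by the plain ratio or with both per kb of coding sequence, 0.28 without a filter, 0.0792 at a minimum mean of 50 and 0.11 to 0.13 over left-out lysates. Large minus small subunit (-1.04) was -0.50 by the plain ratio or per kb of coding sequence, -0.69 at a minimum mean of 50 and -1.02 to -0.86 over left-out lysates. In sgControl cells the median (0.77) was 0.51 by the plain ratio or per kb of coding sequence, 0.81 without a filter and 0.76 to 0.77 over left-out lysates. The cause of these shifts was not tested. Count tests with edgeR and DESeq2, planned on recovered RNA reads, were not run. With 2 lysates a group and an unknown RPF depth, a TE change of the size of the median SE (0.24 in MDA-LM2 and 0.31 in sgHNRNPC cells) could not be told from 0. In sgHNRNPC cells this SE lay below that of RPF alone (0.35), as 1 spread per gene served both kinds of library, so it may be too small. Far larger estimates missed the test too, up to 0.70 among members in MDA-LM2 and 1.34 in sgHNRNPC cells. The lack of TE calls therefore does not exclude changes above the SE.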

Other observations

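The mitochondrial ribosome has 3 human relatives of the bacterial protein bS18, and they differed in level. Per kb of transcript, parental RNA was 251 normalised counts in MRPS18A, 317 in MRPS18B and 84.5 in MRPS18C, and per kb of coding sequence RPF was 43.7, 117 and 95.2. In sgControl cells, whose table was normalised separately, the order of the RNA levels was another, with 64.3 in MRPS18A, 152 in MRPS18B and 90.6 in MRPS18C. Transcript GC was 57.27% in MRPS18A, 51.86% in MRPS18B and 36.84% in MRPS18C. None of the 3 passed the test in RNA, RPF or TE in either comparison. The TE estimate of MRPS18A was 0.70 ± 0.32 (SE) in MDA-LM2 and -1.16 ± 0.37 (SE) in sgHNRNPC cells, and the difference between the comparisons was not tested. In the sparse sgHNRNPC footprints the filter on a mean over both lines can favour members high in 1 line. The estimate there gives no support for a change.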
